A study of Oryza sativa Japonica Group with 20 samples.

Results

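6 nuclear photosynthesis genes, AK121444 (rbcS), AK060904 (CB1), AK119176 (CB2), AK066762 (CB3), AK060222 (CB4) and AK119534 (CB5), were followed through 12 h of acute dehydration in roots and leaves of rice. They were taken by name from the genes that the study identifies, and they are part of the 27,609 genes on the array. Non-transgenic seedlings of the japonica cultivar Nakdong, 14 days old, had been lifted from soil, held in water for 1 day and then air-dried at 32 °C and 50% humidity in continuous light of 150 μmol per m2 and second, with the roots wrapped in tissue and foil. Roots and leaves were collected apart after 0, 0.5, 2, 6 and 12 h, and each of these 10 groups had 2 biological replicates on single-colour (Cy3) arrays, 20 arrays in all. The 0 h groups shared the lifting and the day in water but not the drying or the hours in the chamber, and they are the only undried samples here. Drying therefore cannot be told apart on these arrays from time in the chamber, its light or the time of day. The sources do not say how many plants went into a sample, and the roots belonged to seedlings whose leaves stayed attached until collection.

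Rubisco is the enzyme that fixes carbon dioxide, and rbcS encodes its small subunit, which is made in the cytosol and imported into the chloroplast. CB1 to CB5 carry the study's names for chlorophyll a/b binding proteins, the antenna proteins that hold chlorophyll in the thylakoid membrane and pass light energy to the photosystems. Both families are known for very high transcript levels in green leaf, for control by light and the state of the plastid, and for low levels in roots. Which antenna protein each CB gene encodes is not given in the sources used here.

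The oligonucleotides with which the study amplified each transcript are shown because they are the only sequences at hand that tell the 6 transcripts apart. They are primers of a separate RT-PCR, whose results were not analysed here, and how they lie relative to the array probes was not examined.
rbcS forward: accaccgacaccggcgagaa
rbcS reverse: ttgcgctcggctagctcatc
CB1 forward: cgtgaaggctatgggtggtt
CB1 reverse: ggacggattcacaagagagca
CB2 forward: caacctcttcgcccatctcg
CB2 reverse: caccaccattcacagcctac
CB3 forward: agatggtgccaaccaacgta
CB3 reverse: atgcggcctgcggcttacat
CB4 forward: agcacaacgtgacgcagaag
CB4 reverse: acatcttccatcgcccaatc
CB5 forward: tgcagctggcggagatcaag
CB5 reverse: ctcgctcgtcatcacaaaac
On the array each of the 6 genes was read by 10 probes, which the authors summarised to 1 intensity per gene on a linear scale. Both families have several similar genes, and how far the probes separate the copies is not given in the sources used here, so signal from a related copy cannot be told apart from that of the named gene. The 6 genes could not be placed on a genome, because their identifiers had no match in the annotation at hand.

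The 20 arrays were alike in scale, with median intensities of 1954 to 2743 and highest intensities of 63,105 to 65,131. A control feature of random sequences, which stands for background, read 115 to 228 on 18 arrays, but 340 on root 0.5 h replicate 2 and 362 on leaf 0.5 h replicate 1. On those arrays 20% and 21.1% of genes lay below it. Changes and differences at 0.5 h that moved by 0.30 or more on the log2 scale without these arrays are given both ways for root and for root set against leaf. The labelled tissues were checked at 0 h with genes other than the 6. CB6, a further antenna protein gene, was called lower in root (adjusted p = 7.75e-07 from limma), where both its values lay below the random feature, and of 108 features of the plastid genome 37 were called lower in root by limma, against 7.19% of all genes, and 0 higher. No list of root markers was examined. At 0 h the 6 genes themselves read 465.2 to 1415 in root and 34,875 to 58,566 in leaf. The root values were 3.19 to 9.69 times the random feature of their array and the leaf values 185 to 311 times. In whole tissue, fewer green cells and less transcript per green cell cannot be told apart.

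In root, transcripts of all 6 genes were brighter at every later time than at 0 h, and in leaf all 6 were dimmer at 6 and 12 h. rbcS read 667.6 and 465.2 in root at 0 h (replicate 1 first), 2189 and 1495 after 0.5 h, 1844 and 6934 after 2 h, 1082 and 7582 after 6 h, and 3249 and 12,891 after 12 h. In leaf it read 51,988 and 44,987 at 0 h, 60,069 and 57,633 after 0.5 h, 33,313 and 43,004 after 2 h, 25,792 and 31,061 after 6 h, and 20,208 and 27,288 after 12 h. Every dried root replicate of this Rubisco gene lay above both undried ones, and from 2 h on the root replicates stood far apart, with replicate 2 the brighter. In leaf the 0.5 h replicates were the highest of the course, and those of 2, 6 and 12 h lay below both of 0 h.

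CB1, the first of the antenna protein genes, read 1222 and 1007 in root at 0 h, 1815 and 6748 after 0.5 h, 1795 and 2814 after 2 h, 2055 and 3444 after 6 h, and 2394 and 5022 after 12 h. In leaf it read 43,665 and 46,160 at 0 h, 45,198 and 42,990 after 0.5 h, 28,445 and 36,264 after 2 h, 23,713 and 23,660 after 6 h, and 12,304 and 12,398 after 12 h. Its highest root value was at 0.5 h and came from replicate 2, one of the arrays with a raised random feature, while replicate 1 stayed between 1795 and 2394 once drying had begun. The leaf replicates lay close together at 6 and 12 h and below all earlier ones.

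CB2 read 801.5 and 1415 in root at 0 h, 2406 and 3144 after 0.5 h, 4336 and 4716 after 2 h, 2915 and 4273 after 6 h, and 2822 and 6866 after 12 h. In leaf it read 40,821 and 36,380 at 0 h, 44,429 and 43,464 after 0.5 h, 34,271 and 30,842 after 2 h, 27,218 and 27,123 after 6 h, and 23,502 and 21,489 after 12 h. It was the member whose root replicates at 2 h lay above both replicates of 0.5 h as well as of 0 h. In leaf it kept the largest share of its 0 h intensity among the 6 genes at 6 and 12 h, 70.4% and 58.3% of the mean.

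CB3 read 1329 and 867.4 in root at 0 h, 2180 and 5548 after 0.5 h, 3551 and 3619 after 2 h, 1824 and 3156 after 6 h, and 2760 and 5702 after 12 h. In leaf it read 58,566 and 50,626 at 0 h, 43,438 and 53,503 after 0.5 h, 38,102 and 44,517 after 2 h, 20,887 and 29,225 after 6 h, and 19,823 and 14,033 after 12 h. Root values at 6 h lay below both of 2 h, and the 12 h replicates overlapped those of 6 h. In leaf the 0.5 h replicates overlapped those of 0 h and of 2 h, and those of 2, 6 and 12 h lay below both of 0 h.

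CB4 read 995.6 and 638.4 in root at 0 h, 1748 and 2043 after 0.5 h, 1488 and 2289 after 2 h, 1471 and 2874 after 6 h, and 2291 and 4580 after 12 h. In leaf it read 52,302 and 50,188 at 0 h, 57,270 and 52,031 after 0.5 h, 36,967 and 43,993 after 2 h, 23,356 and 22,934 after 6 h, and 12,340 and 15,340 after 12 h. The root replicates of 0.5, 2 and 6 h overlapped one another and lay above both of 0 h, and those of 12 h reached highest. In leaf the replicates of 2, 6 and 12 h formed a descending series without overlap.

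CB5 read 821.8 and 529.7 in root at 0 h, 1392 and 2309 after 0.5 h, 1223 and 2428 after 2 h, 1371 and 3064 after 6 h, and 1834 and 5430 after 12 h. In leaf it read 34,875 and 41,305 at 0 h, 44,428 and 46,919 after 0.5 h, 28,303 and 38,458 after 2 h, 19,931 and 24,026 after 6 h, and 14,922 and 16,137 after 12 h. As for CB4, the root replicates of 0.5 to 6 h overlapped, above those of 0 h. Leaf values of 0.5 h lay above those of 0 h, those of 2 h overlapped 0 h, and those of 6 and 12 h lay below it.

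**Figure D1:**
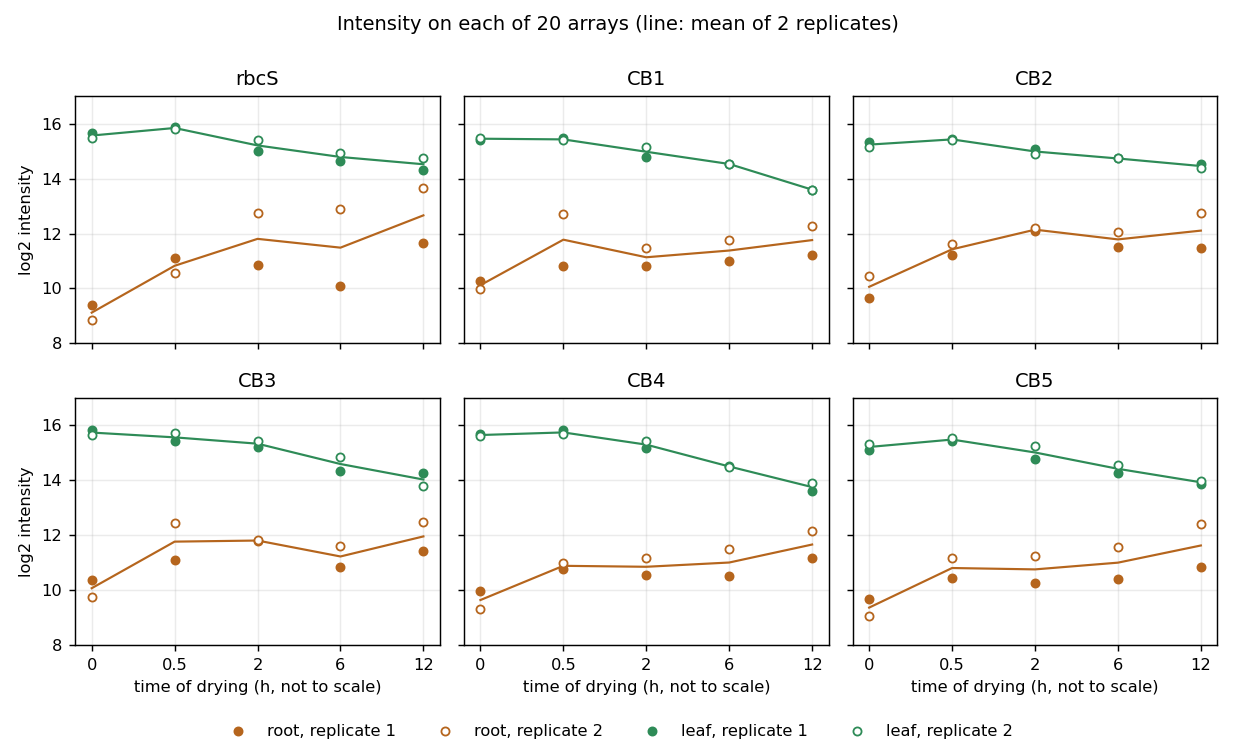
Log2 intensity of rbcS and CB1 to CB5 (1 panel each) on every array against the time of drying in hours (0, 0.5, 2, 6 and 12 h, evenly spaced). Brown marks root and green marks leaf, filled points are replicate 1, open points are replicate 2 and lines join the means of 2 replicates. Root points lay below leaf points of the same time throughout, and the distance between them was smaller at 12 h than at 0 h for each gene.

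Changes against 0 h were tested with limma in a single fit of all 20 arrays, and a gene was called when its Benjamini-Hochberg adjusted p over all genes was under 0.05 and its log2 change was beyond 1 or −1. In root, 0 of the 6 genes were called higher at 0.5 h, against 0.29% of all genes (limma). At 0.5 h 5 of the 6 had an unadjusted p under 0.05, as had 7129 of the 27,609 genes, and the lowest adjusted p of the 6 was 0.0714. CB2 was called at 2 h, against 1.67% of all genes, CB2 and CB4 at 6 h, against 2.19%, and all 6 at 12 h, against 3.31%. CB1 to CB5 were selected by the study because they rose in root on these same arrays, so their root counts describe the selection and are not independent evidence of its direction. rbcS entered the study as a marker already known for its repression when water is short.

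At 12 h rbcS averaged 8070 ± 6817 in root, against 566.4 ± 143.1 at 0 h (intensity, SD, n = 2), a log2 change of 3.54 (SE 0.81, adjusted p = 0.00953 from limma). CB5 averaged 3632 ± 2542 at 12 h, against 675.8 ± 206.6 at 0 h, a change of 2.26 (SE 0.51, adjusted p = 0.00919 from limma). CB2 followed with 2.05 (SE 0.38, adjusted p = 0.00276), CB4 with 2.02 (SE 0.38, adjusted p = 0.00325), CB3 with 1.89 (SE 0.45, adjusted p = 0.013) and CB1 with 1.64 (SE 0.51, adjusted p = 0.0438), each from limma. With only the 10 root arrays the SE at 12 h was 1.02 for rbcS, 0.63 for CB5, 0.53 for CB3 and 0.46 for CB2 and CB4. The adjusted p from limma was then 0.0486 for rbcS, 0.0432 for CB5, 0.0456 for CB3, 0.0199 for CB2 and 0.0209 for CB4. The median change of the 6 genes was 2.04, against −0.02 over all genes. These calls leaned on single arrays. Where an array is left out, the lone array of its group is assumed to vary like the other groups. Without root 12 h replicate 2 the change was 2.54 for rbcS (adjusted p = 0.131), 1.11 for CB1 (0.34), 1.36 for CB3 (0.163), 1.52 for CB4 (0.0551) and 1.48 for CB5 (0.133) in the same limma test, and CB2 was called with each of the 20 arrays left out, its change then between 1.41 and 2.69. Without root 0 h replicate 2, rbcS (adjusted p = 0.063), CB1 (0.178), CB3 (0.101) and CB5 (0.0754) were not called either. The call of CB1 held in 5 of 20 such refits and was lost with only the 10 root arrays (adjusted p = 0.12 from limma).

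The earlier root calls were fewer. CB2 had changed by 2.09 at 2 h (SE 0.38, adjusted p = 0.00798 from limma) and by 1.73 at 6 h (SE 0.38, adjusted p = 0.0126). CB4 had changed by 1.37 at 6 h (SE 0.38, adjusted p = 0.0417), where CB5 at 1.64 (SE 0.51) missed with an adjusted p of 0.0667. CB3 missed narrowly at 2 h, at 1.74 (SE 0.45, adjusted p = 0.0531 from limma), and was called there under 7 of 10 other settings. Without the 2 arrays with a raised random feature CB3 at 2 h and CB1 at 6 h were called as well (adjusted p = 0.0216 and 0.0384). Without root 0 h replicate 1, CB2 was at 1.68 at 2 h (adjusted p = 0.125 from limma) and at 1.32 at 6 h (0.166). It was also lost at 2 h without root 2 h replicate 1 or 2 (0.0553 and 0.1) and at 6 h without root 6 h replicate 2 (0.166). CB4 at 6 h was called in 11 of 20 such refits and was at 0.88 without root 6 h replicate 2 (adjusted p = 0.44 from limma). With only the 10 root arrays neither gene was called at 6 h (adjusted p = 0.0532 for CB2 and 0.108 for CB4). Without regard to the calls, both replicates of 0.5, 2, 6 and 12 h lay above both of 0 h for 6 of 6 genes. The same held for 19.4%, 23%, 29.2% and 26.2% of all genes. CB1 to CB5 were selected for a rise in root on these arrays, so their separation describes the selection. The 6 genes also share the same root arrays of 0 h.

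**Figure D2:**
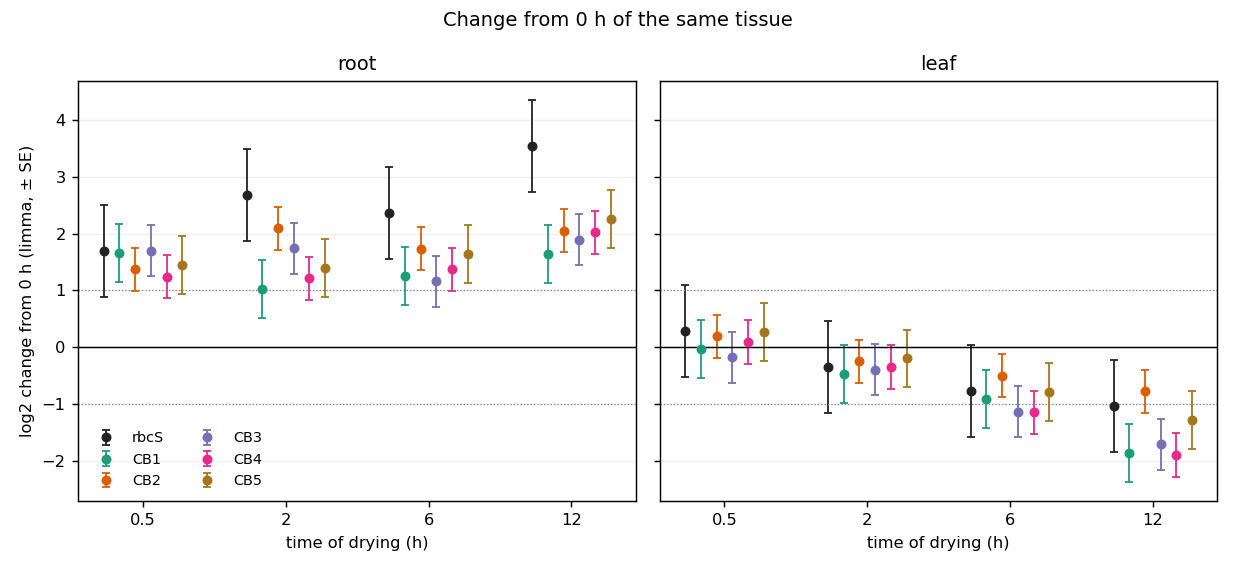
Log2 change from 0 h of the same tissue at each later time (0.5 to 12 h) for the 6 genes, in root (left) and leaf (right), with limma standard errors as bars. Dotted lines mark 1 and −1. Root changes lay between 1.02 and 3.54 at every time, while leaf changes were near 0 at 0.5 h and between −1.90 and −0.78 at 12 h.

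In leaf, 0 of the 6 genes were called lower at 0.5, 2 and 6 h, against 0.261%, 3.62% and 8.72% of all genes (limma). At those times 0, 0 and 2 of the 6 had an unadjusted p under 0.05, as had 5778, 7717 and 8898 of the 27,609 genes. At 12 h the antenna protein genes CB1, CB3 and CB4 were called, 3 of 6 against 10.2% of all genes. The 12 h mean was 27% of the 0 h mean for CB4, 27.5% for CB1, 31% for CB3, 40.8% for CB5, 49% for rbcS and 58.3% for CB2. CB4 had changed by −1.90 (SE 0.38, adjusted p = 0.0047 from limma), CB1 by −1.86 (SE 0.51, adjusted p = 0.0226) and CB3 by −1.71 (SE 0.45, adjusted p = 0.0205). CB5 at −1.29 (SE 0.51, adjusted p = 0.106), rbcS at −1.04 (SE 0.81, 95% interval −2.78 to 0.69) and CB2 at −0.78 (SE 0.38, 95% interval −1.59 to 0.03) did not pass. CB4 was called with each of the 20 arrays left out. CB1 was lost without any of the 4 leaf arrays of 0 or 12 h (adjusted p between 0.0883 and 0.104 from limma), and CB3 without leaf 0 h replicate 1 (0.107) or 2 (0.0726) or leaf 12 h replicate 2 (0.145).

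The standard error of rbcS in that fit drew on its root arrays. Fitted on the 10 leaf arrays alone it was 0.30, and the change of −1.04 had an adjusted p of 0.0616 from limma. In that fit CB5 was called at 12 h (adjusted p = 0.0279) and CB4 already at 6 h (−1.15, adjusted p = 0.0435), while CB1, CB3 and CB4 were again called at 12 h. CB4 at 6 h had missed in the fit of all arrays with an adjusted p of 0.0577 and was called under 7 of 10 other settings. CB3 at 6 h was called only without the 2 arrays with a raised random feature (−1.14, adjusted p = 0.0456), among those 10 settings. Both leaf replicates lay below both of 0 h for 5 of 6 genes at 2 h (23.7% of all genes), all but CB5, and for 6 of 6 at 6 h (32.4%) and at 12 h (33.4%). At 0.5 h rbcS, CB2 and CB5 lay above 0 h in both replicates, 3 of 6 against 14% of all genes, by 0.28, 0.19 and 0.27 on the log2 scale. None of these passed (lowest adjusted p of the 6 genes 0.754 from limma).

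The changes of root and leaf were set against each other as an interaction in the same fit. At 0.5 h, 0 of 6 genes were called, against 0.00362% of all genes called higher. An unadjusted p under 0.05 was found for 3 of 6 (limma, lowest adjusted p = 0.742) and for 1457 of the 27,609 genes. Without the 2 arrays with a raised random feature the difference at 0.5 h was 0.77 for CB1, 1.05 for CB3 and 0.77 for CB5, where all arrays gave 1.68, 1.87 and 1.18, and it was 1.72 for rbcS, where they gave 1.42. At 2 h CB2 was called, against 0.587% of all genes, and at 6 h CB2 and CB4, against 1.09%. At 12 h all 6 were called, against 1.68%. CB3 and CB5 missed at 6 h (adjusted p = 0.0726 and 0.0881 from limma). Both were called there with quantile normalization within each tissue and with the replicate block. CB3 was also called with quantile normalization of all arrays and with the trended and robust prior. CB2 was called at 2 h in 8 of 20 refits with an array left out (adjusted p up to 0.18, without root 0 h replicate 1) and at 6 h in 9 (up to 0.185, without root 6 h replicate 2), and CB4 at 6 h in 13 (up to 0.133, without root 6 h replicate 2). At 12 h the root change exceeded the leaf change by 4.58 for rbcS (SE 1.14, adjusted p = 0.0379 from limma), 3.92 for CB4 (SE 0.54, 0.00253) and 3.59 for CB3 (SE 0.64, 0.00875). It did so by 3.55 for CB5 (SE 0.72, 0.0163), 3.51 for CB1 (SE 0.72, 0.0165) and 2.83 for CB2 (SE 0.53, 0.0114). CB3 and CB4 were called at 12 h with each of the 20 arrays left out. The others were called in 19 such refits for CB2, 16 for CB5, 15 for CB1 and 11 for rbcS, and were lost without root 0 h replicate 1 for CB2 (adjusted p = 0.0605) and without root 12 h replicate 2 for CB5 (0.0626), CB1 (0.0752) and rbcS (0.15).

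Compared directly, root stayed below leaf at every time. All 6 genes were called lower in root at 0, 0.5, 2 and 6 h, against 7.19%, 7.33%, 11.5% and 8.27% of all genes, and 5 of 6 at 12 h, against 5.9%. On the log2 scale the root minus leaf difference of the 6 genes had a median of −5.76 before drying, −4.33 after 0.5 h, −3.68 after 2 h, −3.33 after 6 h and −2.08 after 12 h. CB1 to CB5 had been selected for a rise in root, so some narrowing of their difference follows from the selection. Without the 2 arrays with a raised random feature the median at 0.5 h was −4.67, with CB1 at −4.57, CB3 at −4.62 and CB5 at −5.07, where all arrays gave −3.65, −3.79 and −4.67. For rbcS it was −4.72, where they gave −5.02. rbcS had the widest difference at 0 h, −6.44 (SE 0.81, adjusted p = 7.45e-05 from limma), and it was the gene not called at 12 h, with −1.86 (SE 0.81, adjusted p = 0.156). Its root mean was 34% of its leaf mean at 12 h and 1.17% at 0 h. The 12 h share sets root replicates of 3249 and 12,891, which stood far apart, against leaf replicates of 20,208 and 27,288. For CB2 the shares were 21.5% at 12 h and 2.87% at 0 h. At 12 h the differences of the 6 genes lay between −2.35 for CB2 and −1.83 for CB1, with standard errors of 0.38 to 0.81. Without root 12 h replicate 1 the difference was −1.30 for CB1 (adjusted p = 0.236 from limma), −1.55 for CB3 (0.0994) and −1.52 for CB5 (0.111), and without root 6 h replicate 1 it was −1.90 for rbcS at 6 h (0.151). Without root 2 h replicate 1 it was −2.45 for rbcS at 2 h (0.114), a call also lost without leaf 2 h replicate 2 (0.0816). Leaving out leaf 6 h replicate 1 or 2 ended that of rbcS at 6 h (0.0507 and 0.0913), and leaving out a leaf 12 h array those of CB1 (0.0996 and 0.127), of CB3 without replicate 1 (0.0641) and of CB5 without replicate 2 (0.0644).

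**Figure D3:**
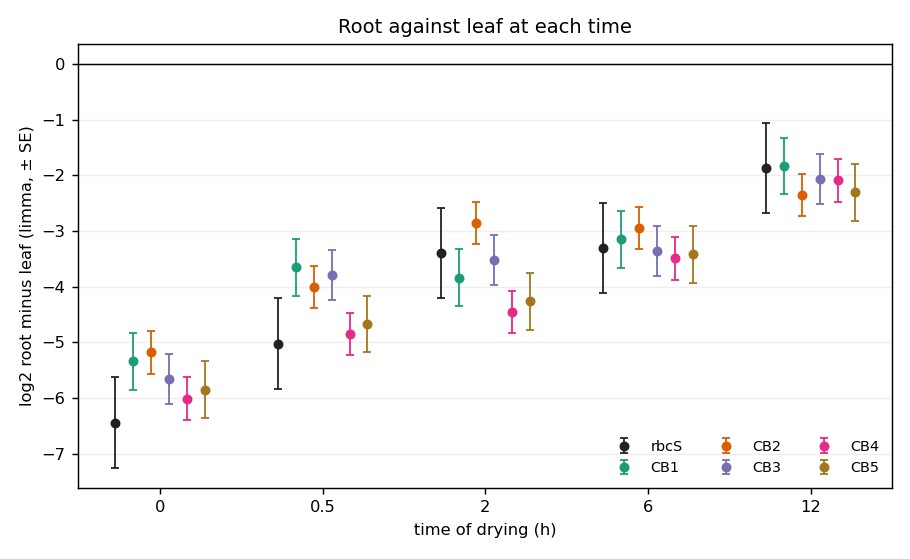
Log2 root minus leaf difference of the 6 genes at 0, 0.5, 2, 6 and 12 h, with limma standard errors as bars. Points sit between −6.44 and −5.18 at 0 h and between −2.35 and −1.83 at 12 h, and none reaches 0.

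Followed step by step, a large part of the 12 h root change of each gene was present at 0.5 h, while the 12 h leaf change lay in the later steps. Arrays with the same replicate number were subtracted between successive times, although the numbers do not tie a plant or culture at one time to another. In root, 6 of 6 genes were higher at 0.5 h than at 0 h in both replicates. Of all genes 44.4% were higher in replicate 1 and 33% in replicate 2. CB1 to CB5 had been selected for a rise in root, which this count restates for them. rbcS stepped up by 1.71 and 1.68, and CB2 by 1.59 and 1.15. For the other 4 genes replicate 2, the array with the raised random feature, stepped further: CB1 by 0.57 and 2.74, CB3 by 0.71 and 2.68, CB4 by 0.81 and 1.68, and CB5 by 0.76 and 2.12. The part of the 12 h root change present at 0.5 h ran from 48% for rbcS through 61.6% for CB4, 63.9% for CB5, 66.9% for CB2 and 89.9% for CB3 to 101% for CB1. Without the 2 arrays with a raised random feature it was 55.6% for rbcS, 55.9% for CB4, 47.8% for CB5, 57.6% for CB2, 54% for CB3 and 43.3% for CB1. These shares set root replicate 1 alone at 0.5 h against both replicates at 12 h. At 12 h replicate 2 was the brighter for each gene, by 1.00 to 1.99, which lowers the shares. Without root 0.5 h replicate 2 the 0.5 h change was 0.71 for CB1, 1.02 for CB3 and 1.08 for CB5, where both replicates gave 1.66, 1.70 and 1.44, and without root 0.5 h replicate 1 it was 2.60 and 2.37, called for both and also for CB2 at 1.56 (adjusted p = 0.00212, 0.00459 and 0.0294 from limma). The 0.5 h group then held only the array with the raised random feature. Over all genes the median change at 0.5 h was −0.30 in root and −0.17 in leaf. On the arrays with the raised random feature the median step from 0 h was −0.50 (root replicate 2) and −0.38 (leaf replicate 1). It was −0.08 in root replicate 1 and −0.07 in leaf replicate 2.

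The later root steps were mixed. Between 0.5 and 2 h CB2 stepped up by 0.85 and 0.59 without overlap, as 34.4% of all genes did. rbcS moved by −0.25 and 2.21, CB1 by −0.02 and −1.26 and CB3 by 0.70 and −0.62. CB4 moved by −0.23 and 0.16 and CB5 by −0.19 and 0.07. For each of these genes other than CB2 the replicates thus disagreed in direction or size. Between 2 and 6 h CB2 stepped down by 0.57 and 0.14 and CB3 by 0.96 and 0.20 without overlap, 2 of 6 genes against 23.6% of all genes, and the other 4 overlapped. Between 6 and 12 h the root step was upward for 5 genes in replicate 1 and for 6 in replicate 2, by 0.64 in the median, where it was for 42.4% and 44.2% of all genes. In that last step 0 of 6 genes separated from the earlier time, against 8.75% of all genes that separated upward.

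In leaf the 3 steps after 0.5 h went down in both replicates for 6 of 6 genes. In replicate 1 and in replicate 2, 35% and 39.2% of all genes stepped down between 0.5 and 2 h, 47% and 63.8% between 2 and 6 h, and 58.4% and 51% between 6 and 12 h. The later replicates lay below both earlier ones for 5 of 6 genes between 0.5 and 2 h (10.2% of all genes), 6 of 6 between 2 and 6 h (23.1%) and 5 of 6 between 6 and 12 h (24.5%). CB3 overlapped in the earliest of these and rbcS in the last. CB1 lost most in the last step, by 0.95 and 0.93, and 50.5% of its 12 h change came after 6 h. CB4 lost least in the earliest step, by 0.63 and 0.24, then 0.66 and 0.94, then 0.92 and 0.58. rbcS lost least in the last step, by 0.35 and 0.19, and 25.9% of its change came after 6 h.

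**Figure D4:**
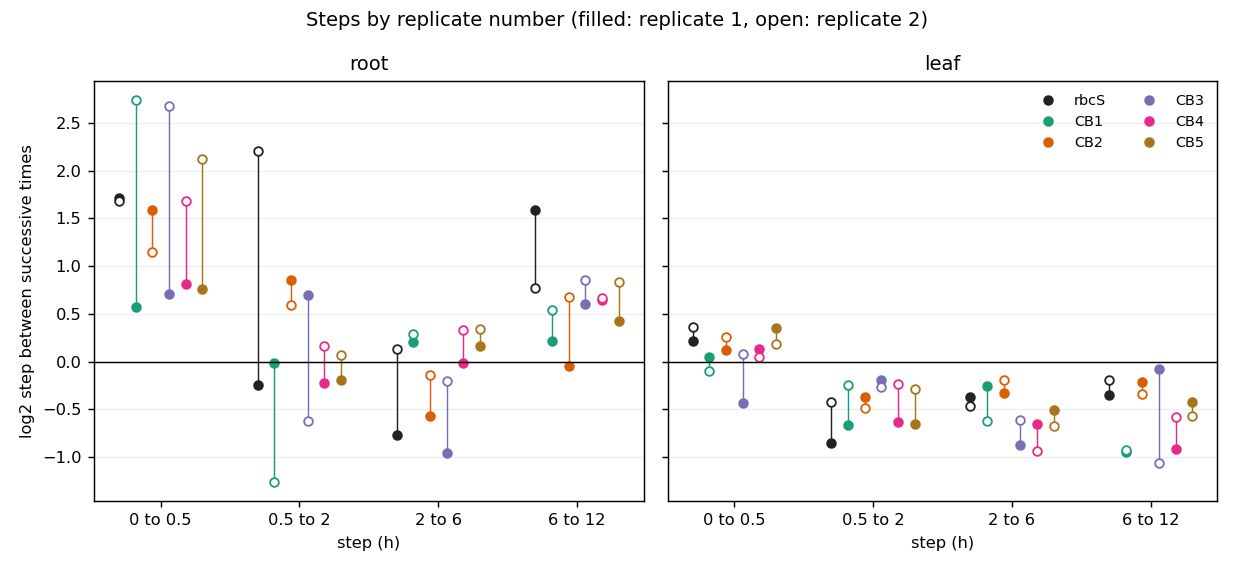
Log2 step between successive times for each of the 6 genes in root (left) and leaf (right). Filled points are replicate 1, open points replicate 2, and a line joins the points of a gene. In root the steps up at 0 to 0.5 h reached 2.74 and those between 0.5 and 6 h lay on both sides of 0, with 11 of 12 upward between 6 and 12 h, while in leaf all 36 steps after 0.5 h, both replicates counted, lay below 0.

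No step between successive times passed the test. Of the 36 steps of the 6 genes after 0.5 h in both tissues, limma called 0, with 0 at an unadjusted p under 0.05 and 0 called with the replicate number as a block. Between 0.5 and 2 h it called 4.13% of all genes higher and 0.58% lower in root, and 2.82% higher and 0.333% lower in leaf. There limma gave 6548 genes in root and 6456 in leaf an unadjusted p under 0.05. For the steps of 2 to 6 h and 6 to 12 h it called 0% of all genes in either tissue, although 371 to 1590 genes had an unadjusted p under 0.05. The difference between the root step and the leaf step was called for 0 of 18 (2 at an unadjusted p under 0.05), against 0.17% of all genes higher and 0.0869% lower for 0.5 to 2 h and 0% for the later steps. Over all genes 2920, 471 and 442 had an unadjusted p under 0.05 for these differences in turn. For 6 to 12 h the root step exceeded the leaf step by 0.59 for CB2 to 1.45 for rbcS, with a 95% interval of 0.24 to 2.57 for CB4 at 1.41 (adjusted p = 1 from limma). Leaving out root 0.5 h replicate 1 made the 0.5 to 2 h step of CB1 in root a called fall, −1.59 (adjusted p = 0.024 from limma), and leaving out root 0.5 h replicate 2 gave 0.31 for the same step.

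Much of the error behind these tests lay between the replicates of dried roots. Replicate 2 was above replicate 1 for 6 of 6 genes in root at 2, 6 and 12 h, by 0.64, 0.88 and 1.18 on the log2 scale in the median. Over all genes the median difference at those times was 0.01, 0 and 0.02, and 51.6%, 49.8% and 51.3% of genes were above. At root 0 h replicate 2 was above replicate 1 for 1 of 6 genes, CB2, and the median was −0.57. In leaf the 6 genes differed between replicates by at most 0.50 in either direction. rbcS differed most, by 1.91 at 2 h, 2.81 at 6 h and 1.99 at 12 h in root, so that its replicate 1 was little higher at 6 h than at 0 h while replicate 2 was many times higher. The part of this shared difference in the calls was not tested, but its sign was the same for each of the 6 genes, so they do not give 6 separate measurements of the root response.

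**Figure D5:**
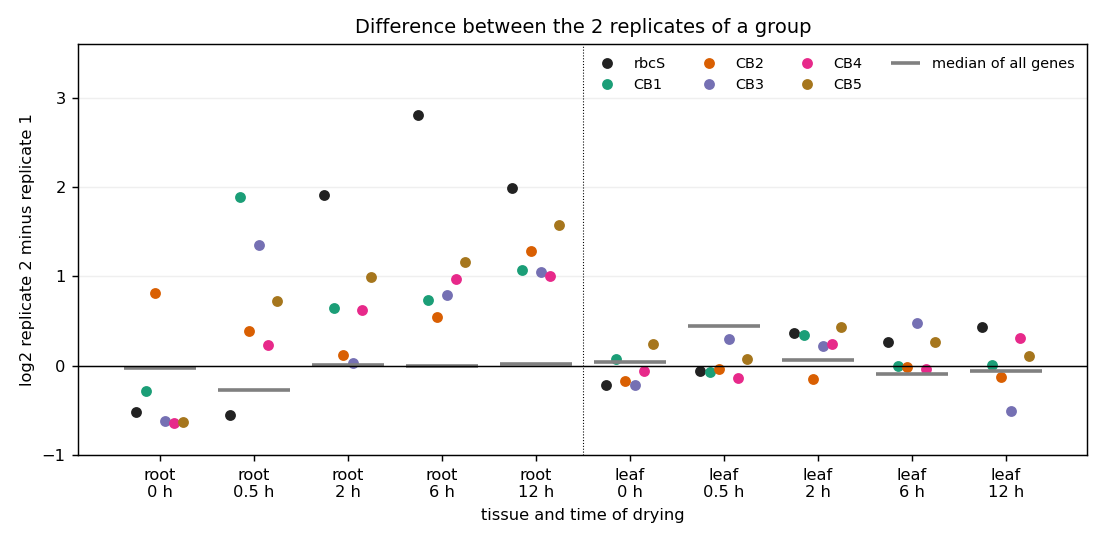
Log2 difference of replicate 2 minus replicate 1 for the 6 genes (points) in each tissue and time, root to the left of the dotted line and leaf to the right, with the median of all genes as a grey bar. At 2, 6 and 12 h in root all points lie above 0, between 0.03 and 2.81, and in leaf they lie between −0.50 and 0.48.

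The members were also compared with each other by their change from 0 h on the same array, since levels of different probe sets are not comparable. At 12 h in root rbcS had risen further than each of the 5 antenna protein genes on both arrays. Its change exceeded that of CB1 by 1.43 and 2.35, of CB3 by 1.18 and 2.12, of CB4 by 1.02 and 2.01, of CB2 by 1.14 and 1.84 and of CB5 by 1.07 and 1.49. Each of these differences lay beyond the spread of the same difference at 0 h. Of the 15 pairs, 10 did so in root at 12 h and 1 in root at 0.5 h, where rbcS and CB4 differed by 0.84 and 0.07. Among the antenna protein genes CB1 had risen less than CB5 by 0.37 and 0.86 in root at 12 h, and CB2 and CB4 differed by −0.12 and 0.17, within their spread at 0 h.

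In leaf at 12 h the widest gaps were between antenna protein genes. There CB2 stood above CB4 by 1.34 and 0.90 and above CB3 by 0.74 and 1.11 in their changes from 0 h, and CB1 differed from CB2 by −1.15 and −1.01. All 3 lay beyond the spread at 0 h. After 12 h 9 of the 15 leaf pairs did so, but 0.5 h, when leaf changes were near 0, gave the same count. It was 2 after 2 h and 9 after 6 h. In each tissue this spread rests on 2 arrays, and for rbcS and CB3 in leaf it rounded to 0. The count by itself therefore does not show that the genes had drawn apart by 12 h. The largest mean gap in leaf was 0.46 after 0.5 h (rbcS and CB3) and 1.12 after 12 h (CB2 and CB4). CB1 and CB4, which fell most, differed by 0.19 and −0.12. No test was made of these differences between genes.

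The likeness of the 6 patterns was described by Pearson's r over the 20 arrays, after centring each gene on its mean in each tissue. The points share arrays and the 2 replicates of 10 groups, and r carries no test here. The 15 pairs had r of 0.67 to 0.95, and of 0.75 to 0.97 over the 10 group means. CB4 and CB5 were each other's nearest of all 27,609 genes at 0.95, and so were CB1 and CB3 at 0.92. rbcS and CB1 were least alike at 0.67, and of the 6 genes CB5 was nearest to rbcS at 0.90, at rank 8 among all genes. In the median a member ranked 8 among all genes in likeness to another. Within the leaf arrays r was 0.87 to 0.98 and within the root arrays 0.66 to 0.98.

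Outside the 6, the gene most like their mean pattern was AK058848 (r = 0.96), which the files do not name. It read 1022 and 3178 at 12 h, against 494.9 and 376.1 at 0 h in root, and 17,375 and 16,720 at 12 h, against 34,224 and 34,908 at 0 h in leaf. Its root replicates did not overlap and replicate 2 was again the brighter at 12 h. Next was AK059037 (r = 0.94), with 249.9 and 987.8 at 12 h, against 123.3 and 89.4 at 0 h in root. Its 0 h root values lay below the random feature, so its root change is at least 1.70 on the log2 scale.

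CB6 (AK106085), which the study groups with the other antenna protein genes, took another course in root. It read 102 and 84.3 at 0 h, 344.6 and 83.8 after 0.5 h, 4045 and 5262 after 2 h, 3490 and 2661 after 6 h, and 846.7 and 1892 after 12 h. It was thus near background for 0.5 h, peaked at 2 h and was lower again at 12 h. Both 0 h values lay below the random feature, and the change was at least 4.91 at 2 h, 4.31 at 6 h and 3.05 at 12 h on the log2 scale. The limma test used the values as deposited, with changes of 5.64, 5.04 and 3.77. It called CB6 at each of these times (adjusted p = 8.36e-05, 0.000178 and 0.000551 from limma). In leaf CB6 read 12,632 and 7630 at 12 h, against 22,672 and 16,165 at 0 h, a change of −0.96 (SE 0.54, adjusted p = 0.266 from limma). Its r with the mean of the 6 genes was 0.55, rank 343 of all genes.

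Genes that the plastid transcribes itself were read by 108 features with identifiers of proteins of the rice plastid genome, 100 of them by a single probe. Such genes encode photosystem proteins but also ribosomal proteins, so the list is not one of photosynthesis alone. In root at 12 h 1 of 108 was called higher and 1 lower, against 3.31% and 10.9% of all genes, with a median log2 change of −0.30, against −0.02 over all genes. In leaf at 12 h limma called 0 of 108 higher, against 5.53% of all genes, and 0 lower, against 10.2% (median 0.34). At 6 h 6 of 108 were called higher in leaf, against 5.72% of all genes (median 0.49). The 6 nuclear genes had medians of 2.04 in root and −1.50 in leaf at 12 h. The difference between these groups of genes was not tested, and signal summarised from a single probe is less certain.

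Because the 6 genes were so much brighter in leaf than in root at 0 h, other features with the same contrast were set beside them. Genes were taken whose leaf 0 h level was at least that of the lowest member and whose leaf level exceeded root by at least 4 log2 units in both replicates at 0 h, a choice that uses the root 0 h arrays, so that some rise of the chosen genes in root follows from it. There were 5 of them. Their median change in root was 1.27 after 0.5 h, 1.92 after 2 h, 1.91 after 6 h and 2.29 after 12 h, where the 6 members had 1.55, 1.56, 1.50 and 2.04. At 12 h 4 of the 5 were called higher in root, against 3.31% of all genes, and replicate 2 exceeded replicate 1 by 1.51 in the median. These calls rest on the same root 0 h arrays as the choice, so they are not independent evidence of a rise. In leaf their median was −1.07 at 12 h, and 1 of 5 was called lower, against 10.2% of all genes. The leaf 0 h arrays entered the choice as well. With a gap of at least 3 log2 units there were 8 features. Their root median was 1.10 at 6 h, where 1 of 8 had a change below 0, and 1.65 at 12 h, where 4 of 8 lay below every member. With a gap of at least 5 there were 3 features, with a root median of 2.68 at 12 h. The part of leaf RNA in root samples in these values was not tested.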

How the data were processed

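Total RNA of 2 biological replicates per tissue and time was labelled with Cy3 and hybridised to a NimbleGen 3′-tiling array of rice genes. Per the labels, RMA turned the signals of the probes into 1 value a gene, and the authors deposited these as linear intensities, which ran from 10.4 to 65,131 here. The background step and the set of arrays normalized together are not given in the sources used here. From another deposited table the number of probes per gene (10 for most genes) was used, and 22 columns of per-sample values were not used.

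For this work log2 of the intensities was used without renormalizing or filtering, over 27,609 genes once 6 control features had been removed. limma 3.58.1 (R 4.3.3) fitted 10 group means with lmFit and eBayes (10 residual degrees of freedom, prior 3.43). The Benjamini-Hochberg adjustment ran over all genes within each comparison, and p-values measure only the spread between these samples. Precision rests on 2 arrays per group, and depth has no meaning for arrays beyond that number. Errors are SD between replicates or SE of the fit.

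The genes named are the 6 members, genes the study names where a result turns on them, and the 2 genes most like the mean of the members. The members, the lists and the alternatives were chosen with earlier results of these data known. The alternatives were 2 quantile normalizations, centring on medians, leaving out the dimmest 25% of genes, values raised to the random feature, fits of a tissue by itself, another prior, a test against a log2 change of 1, a replicate block and each array left out. A setting without the 2 arrays with a raised random feature was added after seeing the data. The procedure was tested on simulated data. Figures were drawn with matplotlib 3.10.9.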

Additional observations from a re-analysis of the deposited data

Results flagged for a closer look

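For 9 values the change in root and the change in leaf differed in limma's interaction test. The study had chosen CB1 to CB5 for their rise in root, which enters each of their differences. At 12 h the difference was 4.58 for rbcS, 3.51 for CB1, 2.83 for CB2, 3.59 for CB3, 3.92 for CB4 and 3.55 for CB5 on the log2 scale, with intensities up in root and down in leaf for each. At 6 h it was 2.51 for CB4 and 2.23 for CB2, and at 2 h it was 2.33 for CB2. With each array left out in turn, the differences at 2 and 6 h were called in 8 to 13 of 20 refits. At 12 h rbcS was called in 11 of 20, CB1 in 15, CB5 in 16, CB2 in 19, and CB3 and CB4 in 20.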

How the results depend on the processing

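The 24 root comparisons with 0 h gave 9 calls, and 15 with quantile normalization within each tissue, 14 with a trended and robust prior, 14 with the replicate block and 6 with only the 10 root arrays. Calls over all 27,609 genes moved too. At 12 h 913 were called higher in root, and 1478, 972, 1112 and 1009 under these settings in turn. The 24 leaf comparisons gave 3 calls, and 5 with the replicate block or only the 10 leaf arrays. Over all genes 2813 were called lower in leaf at 12 h, 3317 with the block and 1981 with only the leaf arrays. Tested against a log2 change of 1 by limma's treat, both counts were 0, and the 9 differences between tissues became 1, CB4 at 12 h. Over all genes treat called 171 higher in root, 223 lower in leaf and 27 differences higher at 12 h. With single arrays left out the counts ran from 1 to 4 in leaf, 4 to 14 in root (4 with replicate 2 of undried root left out, 14 with replicate 1 of root 0.5 h left out) and 3 to 11 between tissues (3 with replicate 2 of undried leaf or replicate 1 of undried root left out), from 0 to 1 and 0 to 0 for steps and their differences, and from 26 to 29 for root below leaf. Same-numbered arrays of 2 groups deviated from their means with r from −0.16 to 0.72 (median 0.31) over 45 pairs of groups, 38 of them above 0.1. Same-numbered arrays thus often deviated together, but not in every pair, and no source ties the numbers to a shared plant, batch or day, so they were not used as pairs. With the replicate block the added calls were CB2 and CB3 in root at 0.5 h (adjusted p = 0.0463 and 0.0468 from limma), rbcS and CB3 at 2 h (0.0496 and 0.0332) and CB5 at 6 h (0.0245), CB4 in leaf at 6 h (0.0371) and CB5 at 12 h (0.045), and between tissues at 6 h CB3 (0.0469) and CB5 (0.0353).

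Centred on medians, the changes of CB1 and CB3 in leaf at 0.5 h turned to 0.23 and 0.08, and centring moved the median of all genes there from −0.17 to 0.08 and in root from −0.30 to −0.11. The 0.5 to 2 h step of CB3 in root turned to −0.05 with either quantile normalization and −0.11 when centred. Without the 2 arrays with a raised random feature that step turned to 0.31 for CB1, 0.08 for CB4 and 0.31 for CB5, and its difference from leaf to 0.73 for CB1. Single arrays left out turned 21 values, with these lowest and highest values. Between 0.5 and 2 h the root step ran from −1.59 to 0.31 for CB1, −0.63 to 0.72 for CB3, −0.34 to 0.28 for CB4 and −0.55 to 0.44 for CB5, and its difference from the leaf step from −1.13 to 0.77 for CB1, −0.40 to 0.94 for CB3 and −0.08 to 0.91 for CB5. Between 2 and 6 h the root step ran from −1.73 to 1.08 for rbcS, −0.13 to 0.62 for CB1, −0.33 to 0.64 for CB4 and −0.33 to 0.83 for CB5, and the difference from −1.31 to 1.50 for rbcS, −0.37 to 0.18 for CB2 and −0.24 to 0.55 for CB3. Between 6 and 12 h the root step ran from −0.23 to 2.58 for rbcS, −0.15 to 0.92 for CB1, −0.32 to 0.96 for CB2 and −0.16 to 1.41 for CB5, and the difference from −0.05 to 1.23 for CB2. In leaf the change from 0 h ran from −0.07 to 0.01 for CB1 at 0.5 h and from −0.42 to 0.02 for CB5 at 2 h. The cause was not tested. Fits within a tissue could not be made for comparisons between tissues. The spread between replicates of dried roots limits what these arrays can separate.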
